A study of Mus musculus with 36 samples.

Results

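Depolarization of cultured mouse cortical neurons with KCl for 1 h lowered accessibility at 602 ATAC-seq peaks that BDNF did not lower to a comparable extent, out of 58177 peaks in the table. Peaks were required to have a mean count of at least 20 over the 18 libraries, which kept 40667, and counts were expressed as CPM, the count scaled to the library's total of reads in peaks. For each group, L was the log2 ratio of its mean CPM to the mean CPM of the 6 controls, each with 0.5 CPM added, minus the median over the kept peaks. The peaks were selected on their own accessibility: a peak was taken as KCl-closed when L was at most -0.8 with KCl at 1 h and between -0.4 and 1 with BDNF at 1 h. The KCl 1 h, BDNF 1 h and control libraries therefore chose the peaks, and their levels in these libraries are a description and not a test. Of 846 kept peaks at or below the KCl limit, 221 were left out because L with BDNF was -0.4 or lower and 23 because it was 1 or higher.

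The neurons came from the cortex of CD-1 mouse embryos and were kept for 7 days in vitro. For 2 h before stimulation, AP-5 (100 µM), a blocker of NMDA receptors, and TTX (1 µM), a blocker of sodium channels, kept the cells silent. BDNF (10 ng/ml), a secreted growth factor that acts through the TrkB receptor, or KCl (55 mM), which depolarizes the membrane, was then given for 1, 6 or 10 h, and controls were left in both blockers for 3, 8 or 12 h in all. All groups, controls included, had thus been silenced, and the controls are silenced rather than untreated neurons. ATAC-seq, in which a transposase cuts and tags accessible DNA, and RNA-seq were each measured in 18 libraries, 2 for each of 9 groups. Letters A and B name the 2 ATAC libraries of a group by column order and pair nothing. The labels do not say whether the 2 libraries came from separate cultures, so p-values measure the spread between these libraries.

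Depth ranged from 1.24 to 6.24 M reads in peaks for ATAC (M for 10 to the power 6, median 3.55 M), and the shallowest library was KCl 6h B. RNA libraries held 8.51 to 36.7 M reads. Each of 5 neuronal marker genes was expressed in the RNA libraries, with a summed normalised value of 45127 to 50141 in controls. Markers of other cells were present as well: those of astrocytes summed to 8839 to 11818 in controls and those of microglia to 86.9 to 109.7. Oligodendrocyte-lineage markers were lower in the KCl 1 h libraries (4280 to 4844) than in controls (5757 to 6204), with 2 of 5 called lower at 1 h. Of the other marker lists, 1 gene was lower and 4 higher of 5 for neurons, 1 and 2 of 5 for excitatory and 0 and 3 of 5 for inhibitory neurons. The counts were 0 and 2 of 5 for progenitors, 1 and 1 of 4 for microglia, 0 and 2 of 3 for vascular cells and 0 and 0 of 4 for astrocytes. Over all tested genes, 28.2% were called lower and 26.5% higher with KCl at 1 h. The part of these markers in the accessibility results was not tested. In such bulk samples, fewer cells of a type and less accessibility or RNA per cell cannot be told apart.

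CTCF is a zinc-finger protein that binds a long, GC-rich DNA element, halts the loop-extruding cohesin ring and marks the boundaries of chromatin domains. Its binding keeps a short stretch of DNA free of nucleosomes, so that CTCF sites are seen as ATAC-seq peaks in most cell types, neurons included. Promoters with CpG islands are the other large class of accessible sites that differ little between cell types, whereas enhancers in introns and between genes are more specific to a cell type and a stimulus.

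A CTCF motif match was more frequent in KCl-closed peaks than among all kept peaks. With at most 1 mismatch allowed in the 12-letter core of the CTCF motif, on both strands of the central 300 bp, 222 of 602 peaks had a match (36.9%, exact 95% interval 33.0 to 40.9), compared with 4605 of all 40667 kept peaks (11.3%). With no mismatch the shares were 12.5% (75 peaks) and 3.43%. The matches of the 6 peaks with the lowest L among those with a match are given below to show the element itself, read 5′ to 3′ on the strand of the match, with 10 reference bases on each side and the matched core in capitals (RefSeq sequence of GRCm38, the build of the files).
Peak chr10:118250913-118251251, minus strand: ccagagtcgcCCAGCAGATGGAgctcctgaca
Peak chr16:55863387-55863698, minus strand: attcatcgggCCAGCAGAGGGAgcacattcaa
Peak chr17:40837354-40837582, plus strand: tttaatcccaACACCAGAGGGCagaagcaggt
Peak chr4:142153610-142153934, plus strand: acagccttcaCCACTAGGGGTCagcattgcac
Peak chr7:105816827-105817045, plus strand: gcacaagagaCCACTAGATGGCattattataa
Peak chr16:45192698-45192870, plus strand: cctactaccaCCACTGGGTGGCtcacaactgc
Only the match on chromosome 7 had no mismatch. A match is a description of the letters and does not show that the protein was bound.

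The higher share of CTCF matches was found in each stratum of position, width and count. Outside promoters, 39.0% of KCl-closed peaks and 14% of kept peaks had a match, and at promoters the shares were 19.0% and 6.29%. Among peaks outside promoters that were narrower than 300 bp, 42.1% of 235 KCl-closed peaks and 22.8% of 5809 kept peaks had one. Among those with a mean count of 50 or more, the shares were 37.7% of 53 and 9.01% of 6406. The matches lay a median of 44.5 bp from the centre of KCl-closed peaks and 54 bp from the centre of all kept peaks, with 107 on the plus and 115 on the minus strand. By depth of the fall, the share was 35.1% of the 74 peaks with L at or below -1.2, 42.6% of the 136 between -1.2 and -1, and 35.2% of the 392 between -1 and -0.8.

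Other peaks that responded at 1 h had different shares. Peaks closed by BDNF with L of KCl between -0.4 and 1 (569 peaks) had a CTCF match in 4.39% of cases, and peaks opened by KCl with little response to BDNF (504 peaks with L of KCl at least 0.8 and of BDNF within 0.4 of 0) in 2.58%. The 221 peaks at or below the KCl limit that were also lower with BDNF had one in 26.7%, with an exact 95% interval of 21 to 33.0, whose upper end meets the lower end of the interval of the KCl-closed peaks. These peak sets were all chosen against the same 6 controls, and their differences were not tested.

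**Figure D1:**
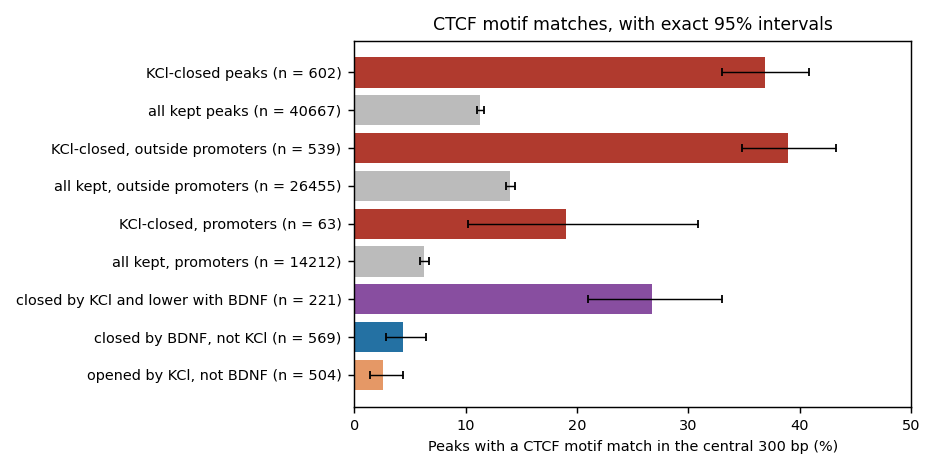
Percent of peaks (x axis) with a CTCF motif match in the central 300 bp, for KCl-closed peaks, all kept peaks and other peak sets of 1 h; bars are shares and whiskers exact 95% intervals (counting error alone). KCl-closed peaks reach 36.9%, all kept peaks 11.3% and peaks closed by BDNF but not KCl 4.39%.

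Seen from the side of the motif, kept peaks with a CTCF match had L slightly below 0 with KCl at 1 h, a description from the libraries that chose the peaks. Over the 1394 kept peaks with an exact match the median L with KCl was -0.25 (1 h), -0.05 (6 h) and -0.04 (10 h), and with BDNF -0.02 at 1 h. In the 3211 peaks with 1 mismatch it was -0.18 with KCl at 1 h, and in the 36062 peaks with no match 0.02. KCl-closed peaks were 5.38% of the exact matches, 4.58% of those with 1 mismatch and 1.05% of the peaks with no match. Most CTCF matches thus lay in peaks that did not reach the limit of the rule.

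The other motifs were searched on both strands of the same central 300 bp, and several of their shares differed between promoters and other peaks. The GC box GGGCGG, to which SP and KLF factors bind, was in 11.8% of KCl-closed and 28.2% of kept peaks, but outside promoters the shares were 8.53% and 8.78%. The AP-1 element TGANTCA, bound by Fos and Jun proteins, was in 10.1% and 13.1%, outside promoters in 10.2% and 17.9%, and at promoters in 9.52% and 4.19%. The cAMP response element TGACGTCA was in 0 of 602 KCl-closed peaks and in 1.21% of kept peaks, outside promoters in 0 of 539 and 0.416%. It was also in 0 of 569 peaks closed by BDNF only, in 2 of 221 closed by KCl and lower with BDNF, and in 13 of 504 opened by KCl only. The E-box CAGATG was in 29.6% and 23.1%, outside promoters in 30.8% and 29.8%, and over the whole peak in 32.2% and 34.3%. It can lie inside a CTCF match, as in the first match printed above, so its share is not separate from that of CTCF. The homeobox core TAATTA was in 9.63% and 11.5% (outside promoters 10.8% and 16.3%), against 21.1% of peaks closed by BDNF only. The ETS element CCGGAAG was in 2.82% and 5.95% (outside promoters 1.86% and 1.49%), and the NRF1 element GCATGCGC in 0.664% and 1.86% (outside promoters 0.557% and 0.684%). The YY1 element AAGATGGCG was in 0.498% and 1.19% (outside promoters 0.371% and 0.197%). The RFX motif was in 0.332% and 0.684% (outside promoters 0.371% and 0.786%). The E2F element, read as TTTCCCGC, TTTCGCGC, TTTGCCGC or TTTGGCGC, was in 0.664% and 1.92% (outside promoters 0.557% and 0.919%).

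KCl-closed peaks were mostly distal, narrow and of low signal. Promoter peaks overlapped the stretch from 1000 bp upstream to 100 bp downstream of the annotated start of any transcript, also of starts inside a gene. They were 63 (10.5%) compared with 34.9% of kept peaks. Introns held 238 (39.5%, kept 29.3%), exons 43 (7.14%, kept 4.57%) and intergenic DNA 258 (42.9%, kept 31.2%). Outside promoters the median distance to the nearest annotated start was 11.3 kb, compared with 16.8 kb for all kept peaks there. The median width was 319 bp (126 to 1433) against 476 bp, and the median count per library 28.5 against 42.3. Other peak sets of 1 h shared much of this. Promoters were 5.45% of peaks closed by BDNF only, 9.05% of those closed by KCl and lower with BDNF, and 24.8% of those opened by KCl only. In the same order, the median widths were 392, 314 and 459 bp and the median counts 27.3, 26.7 and 29.8. The 63 promoter peaks were poor in CpG for promoters, with a median observed to expected CpG ratio of 0.38 against 0.83 and a GC content of 56.7% against 66%. Chromosomes differed little, with KCl-closed peaks making up 0.922% (chromosome 18) to 2.06% (chromosome 13) of kept peaks on the autosomes, and 31 followed the previous one within 50 kb.

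In the libraries that chose them, the fall was seen in both KCl 1 h replicates. The 602 peaks took 0.346% and 0.354% of the reads of KCl 1h A and B, 0.662% to 0.738% in the 6 controls and 0.668% to 0.672% in the BDNF 1 h libraries. Both KCl 1 h values lay below all 6 controls in 438 of 602 peaks (72.8%), against 8.71% of kept peaks, and edgeR called 432 lower than controls (3.11% of all tested peaks). These counts follow from the rule. With a median of 17 reads per peak in KCl 1h A and 29 in B, counting error was large for single peaks: taken alone, library A put 435 of the 602 at or below -0.8 and library B 422, and both did for 255. The 3 peaks just inside the limit had L of -0.8002, -0.8005 and -0.8007, and the 3 just outside -0.7995, -0.7995 and -0.7988, so the limit separates no distinct class.

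**Figure D2:**
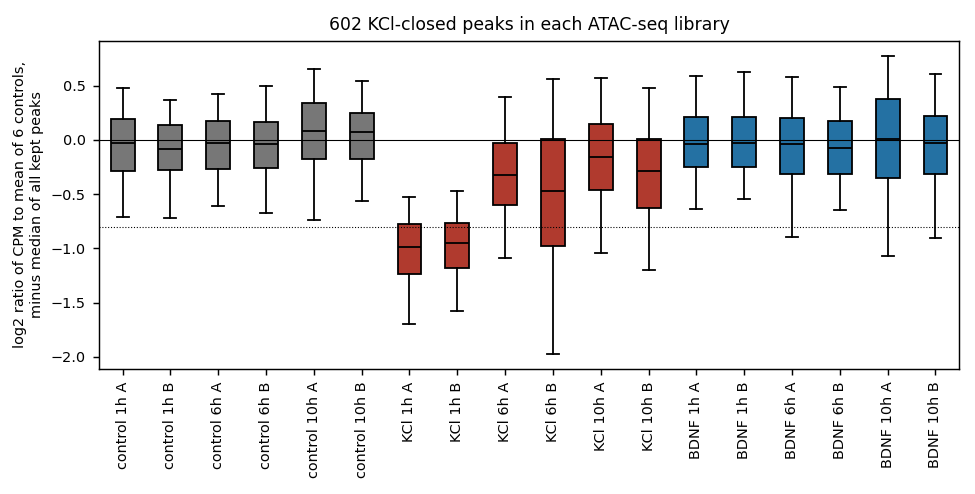
Log2 ratio of CPM to the mean of the 6 controls, minus the median of all kept peaks (y axis), for the 602 KCl-closed peaks in each ATAC library (x axis); boxes give median and quartiles, whiskers the 5th and 95th percentiles, the dotted line the limit of -0.8. The medians are -0.98 and -0.96 in KCl 1 h, -0.32 and -0.47 in KCl 6 h, and -0.15 and -0.29 in KCl 10 h, while the BDNF and control medians lie between -0.08 and 0.09.

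The deepest falls were at distal sites. The lowest L was -2.07 at chr3:60123870-60124095, an intergenic peak with 1.27 and 1.76 CPM at KCl 1 h compared with 4.56 (lowest), 7.28 (median) and 11.9 (highest) in the 6 controls. It was followed by 3 peaks with a CTCF match. At chr10:118250913-118251251, intergenic, 2.18 kb from the start of Gm9030 and 7.61 kb from that of the predicted coding gene Gm32802, KCl 1 h gave 2.03 and 2.73 CPM and the controls 5.77, 11.3 and 13.5. In KCl 6 h this peak had 9.27 and 11.3 CPM and in KCl 10 h 10.0 and 8.09, within the range of the controls. At chr16:55863387-55863698, in an intron of Nxpe3, KCl 1 h gave 2.03 and 3.37 CPM and the controls 7.71, 11.1 and 13.7. This peak had 9.98 and 3.22 CPM in KCl 6 h and 2.68 and 7.47 in KCl 10 h, so that 1 library of each later pair was low. At chr17:40837354-40837582, in an intron of Rhag, an ammonia channel of red blood cells, values were 1.52 and 2.41 CPM at KCl 1 h, 9.03 and 9.66 at 6 h, 13.7 and 8.40 at 10 h, and 5.46, 7.02 and 14 in controls. At chr4:142153610-142153934, in an intron of Kazn 0.814 kb from one of its starts, which encodes the cell-junction protein kazrin, KCl gave 3.3 and 3.53 CPM at 1 h. After 6 h the values were 7.37 and 13.7, after 10 h 8.37 and 12.4, and the controls had 8.26, 10.2 and 18.6. In the Rhag and Kazn peaks every later KCl library was above both KCl 1 h libraries.

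The remaining 5 of the 10 lowest had no CTCF match. They lay in an intron of Srgap3 (L -1.64), which encodes a protein of the Slit-Robo pathway, in an exon shared by Gdf1 and Cers1 (-1.57), in an intron of Kif1a (-1.56), the kinesin that carries synaptic vesicle precursors, in an exon of the forkhead gene Foxj2 (-1.55) and in an intron of Tnip3 (-1.53). The central 300 bp of the chr10:118250913-118251251 peak (chr10:118250933-118251232, plus strand, no annotated exon) are given as an example of a closed CTCF element in its context, with the match in capitals, which on this strand reads as the reverse complement of the sequence above.
Peak chr10:118250913-118251251: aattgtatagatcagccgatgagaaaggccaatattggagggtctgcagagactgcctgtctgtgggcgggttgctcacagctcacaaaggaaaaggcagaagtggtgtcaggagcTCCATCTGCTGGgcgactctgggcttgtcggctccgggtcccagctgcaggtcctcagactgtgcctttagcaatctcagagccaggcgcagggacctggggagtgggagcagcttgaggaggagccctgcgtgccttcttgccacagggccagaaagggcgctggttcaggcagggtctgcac

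The strongest peaks among the 602 were mainly promoters. The promoter of Ube3a, the ubiquitin ligase lost in Angelman syndrome, had the highest control level (140, 149 and 154 CPM as lowest, median and highest) and 81.9 and 86.7 CPM at KCl 1 h. It rose to 105 and 111 CPM at 6 h and 112 and 94.3 at 10 h, still below all controls, while BDNF gave 122 to 131 CPM over its 6 libraries, also below them. The promoter of Rufy3, which encodes a protein of growing axons, fell from 109, 115 and 131 CPM in controls to 72.0 and 64.5. Rimklb, encoding an N-acetylaspartylglutamate synthase, had 55.0 and 55.2 CPM at its promoter against 77.0, 95.8 and 114 in controls. The Serinc1 promoter had 43.9 and 43.6 CPM against 71.2, 80.6 and 89.1. The fifth, an intergenic peak with an exact CTCF match (chr8:18953922-18954407, 3.19 kb from Xkr5), had 36.5 and 37.8 CPM against 61.7, 69.0 and 77.5. In all 5 the KCl 1 h values stood clear of the controls.

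Among protein-coding promoters, the lowest values were at Mrpl53, a subunit of the mitochondrial ribosome (L -1.27), and Orai3, a calcium channel subunit (-1.24). The Orai3 peak had 6.08 and 9.46 CPM at KCl 1 h and 12.8, 18.4 and 22.5 in controls. Then came Otof, encoding the calcium sensor otoferlin (-1.19), Ccdc17 (-1.10), Mknk1, a kinase of the translation factor eIF4E (-1.07), Atp6v0e, a subunit of the vacuolar proton pump (-1.04), Rita1, which binds the Notch effector RBPJ (-1.03), and the axon guidance receptor gene Robo3 (-0.97). The Rita1 and Robo3 promoter peaks had a CTCF match.

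The later times offer a test outside the libraries whose ratios chose the peaks, although the later libraries entered the filter on mean count. KCl was compared directly with BDNF at 6 h and at 10 h with edgeR's quasi-likelihood test over 56383 peaks, with Benjamini-Hochberg adjustment and calls at an adjusted p below 0.1. At 6 h, 34 of the 602 peaks were called lower with KCl than with BDNF and 0 higher (DESeq2 called 28 and 0), and 107 were lower and 3 higher at an unadjusted p under 0.05. Over all 56383 tested peaks, 1.95% were called lower and 1.49% higher, and 4264 were lower and 3988 higher at that unadjusted p. The median log2 fold change of the 602 was -0.37 compared with 0.01 over all tested peaks, and 75.6% were below 0 compared with 48.9%. At 10 h, 6 were called lower and 2 higher (all tested peaks 1.15% and 0.812%), with a median of -0.24 compared with 0.01 and 70.8% below 0 compared with 49.4%.

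Each of the libraries compared was also left out in turn, which leaves a single library in its group. Fewer peaks were then called lower in every refit, among the KCl-closed peaks and among all tested peaks. The number of calls therefore cannot tell whether the result for the KCl-closed peaks rests on single libraries. Their median log2 fold change ranged from -0.44 to -0.31 at 6 h and from -0.33 to -0.18 at 10 h in these refits. Over all tested peaks it lay between -0.01 and 0.02 at both times. In terms of raw levels, both KCl 6 h libraries lay below both BDNF 6 h libraries in 222 peaks (36.9%, kept peaks 21.2%), both KCl 10 h below both BDNF 10 h in 160 (26.6%, kept 18.8%), and all 4 later KCl libraries below all 4 later BDNF libraries in 56 (9.30%, kept 5.69%).

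Between KCl 6 h and 10 h no peak was called, either among the 602 or among all tested (0.0%), with edgeR or with DESeq2. Of the 602, 7 were lower and 25 higher at 10 h at an unadjusted p under 0.05, beside 1701 and 1666 of all 56383 tested peaks. The median log2 fold change was 0.10 compared with -0.00 over all tested peaks. Between controls of 6 h and of 1 h edgeR called 0 of the 602 and 0 of all peaks (0.0%, also 0 with DESeq2). At an unadjusted p under 0.05, 6 of the 602 were lower and 10 higher, beside 1214 and 1367 of all 56383 tested peaks. Controls of 10 h differed from those of 1 h at 1 of the 602 (0.039% of all tested peaks), a call that was lost when any of the 4 libraries was left out. At an unadjusted p under 0.05, 6 of the 602 were lower and 46 higher at 10 h, beside 2164 and 2413 of all 56383 tested peaks. The median log2 fold change between these controls was 0.12 compared with 0.02 over all tested peaks.

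Against the controls, which helped to choose the peaks, edgeR called 56 of the 602 lower and 0 higher with KCl at 6 h (all tested peaks 1.95% lower and 5.26% higher) and 48 lower and 1 higher at 10 h (1.96% and 5.6%). With TMM scaling in place of LOESS offsets, 64 of the 602 and 2228 of all 56383 tested peaks were lower at 6 h, and at 10 h 50 and 2944. With BDNF, 3 were called lower and 2 higher at 6 h (all tested peaks 1.97% and 7.97%), and 7 lower and 7 higher at 10 h (1.82% and 7.02%). Only 98 of the 602 had an L of -0.8 or lower with KCl at 6 h and 47 at 10 h, and 130 and 171 were above 0. These comparisons share the controls, and are given side by side as descriptions.

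Peaks with and without a CTCF match had different medians at the later times. Of the 34 called lower than with BDNF at 6 h, 4 had a CTCF match (1.80% of the 222 with a match) and 30 had none (7.89% of 380), beside the 1.95% of all tested peaks and 46 of the 4605 kept peaks with a match. At 10 h the 6 called lower were all without a match. The median log2 fold change of KCl against BDNF was -0.26 with a match and -0.42 without at 6 h, and -0.17 and -0.27 at 10 h. All 4605 kept peaks with a match had medians of -0.07 and -0.05. All 4 later KCl libraries lay below all 4 later BDNF libraries in 7 of the 222 peaks with a match (3.15%) and in 49 of the 380 without (12.9%), beside the 5.69% of kept peaks. The difference between the sets of peaks was not tested. In the RNA at 6 h, inhibitory neuron markers summed to 19495 to 19669 with KCl and 15028 to 15997 with BDNF, with 2 of 5 called lower with KCl and 3 higher. Astrocyte markers summed to 7027 to 8307 and 8668 to 9039 (1 and 0 of 4). Oligodendrocyte-lineage markers summed to 6852 to 7191 and 5479 to 5572 (2 and 2 of 5). The counts were 1 and 2 of 5 for neurons, 0 and 0 of 5 for excitatory neurons and 2 and 1 of 5 for progenitors. They were 1 and 1 of 4 for microglia and 0 and 2 of 3 for vascular cells, beside 29.6% and 27.8% of all genes. The part of these markers in the peak differences was not tested.

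**Figure D3:**
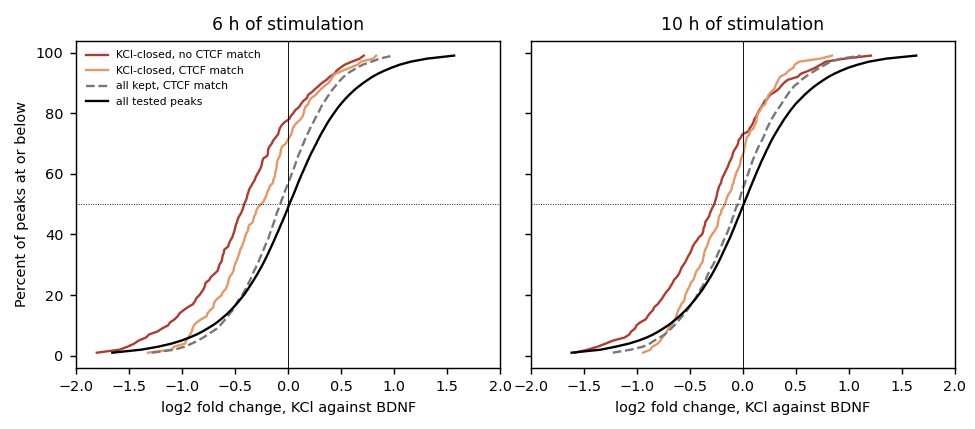
Cumulative percent of peaks (y axis) by log2 fold change of KCl against BDNF (x axis, edgeR with LOESS offsets) at 6 h and 10 h, drawn from percentiles 1 to 99. At 6 h the medians are -0.42 for KCl-closed peaks with no CTCF match, -0.26 for those with one, -0.07 for all kept peaks with a match and 0.01 for all tested peaks.

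Peaks called lower at both later times were 4 in number, all distal and without a CTCF match. The peak chr10:81551569-81552001, intergenic and 6.59 kb from the start of Gna11, which encodes a G protein alpha subunit, had 9.03 and 8.86 CPM in KCl 6 h and 22.8 and 22.1 in BDNF 6 h. At 10 h it had 5.36 and 7.47 CPM with KCl and 21.7 and 19.4 with BDNF. The log2 fold change was -1.41 ± 0.32 (SE; edgeR adjusted p = 0.00609) at 6 h and -1.75 ± 0.34 (adjusted p = 0.001425) at 10 h, and the levels with KCl at the 3 times did not overlap with any control (16, 21 and 24.3 CPM) or BDNF library.

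The peak chr1:85716536-85716897, intergenic and 13.3 kb from Sp100, which encodes a protein of nuclear bodies, had 7.84 and 8.05 CPM in KCl 6 h against 19.5 and 15.8 in BDNF 6 h (edgeR adjusted p = 0.03631). At 10 h it had 8.04 and 7.47 against 18.8 and 19.4 CPM (edgeR adjusted p = 0.02056). The intronic Srgap3 peak (chr6:112728811-112729185) had 2.61 and 4.03 CPM in KCl 6 h against 14.7 and 15.3 in BDNF 6 h, the largest fall of the 34 (log2 fold change -2.43 ± 0.47 (SE), edgeR adjusted p = 0.000628). At 10 h it had 4.69 and 4.36 against 14.3 and 9.0 CPM (edgeR adjusted p = 0.09134). BDNF at 1 h gave 16.7 and 19.5 CPM in this peak, above 5 of the 6 controls (7.47, 8.67 and 20.2 CPM as lowest, median and highest), as did BDNF at 6 h, so the fold change against BDNF combines a lower level with KCl and a higher level with BDNF. The peak chr1:162615544-162615863, intergenic and 23.5 kb from Myoc, had 4.75 and 1.61 against 10.3 and 9.27 CPM at 6 h and 5.36 and 8.09 against 16.8 and 16.2 CPM at 10 h (edgeR adjusted p = 0.06441 and 0.05563). In these 4 peaks each later KCl library lay below each BDNF library of the same time. The calls rested on few reads. The Myoc peak lost its call when any 1 of the 4 libraries compared was left out, at both times (log2 fold change -2.68 to -1.15 at 6 h and -1.70 to -1.13 at 10 h). The Sp100 peak lost its call at 6 h without BDNF 6h A, KCl 6h A or KCl 6h B (-1.10, -1.21 and -1.25) and at 10 h without BDNF 10h A, BDNF 10h B or KCl 10h B (-1.42, -1.37 and -1.32). The Srgap3 peak lost it at 6 h without KCl 6h A (-2.0) and at 10 h without BDNF 10h A, KCl 10h A or KCl 10h B (-1.11, -1.49 and -1.37), and at 10 h with DESeq2. The Gna11 peak lost it at 6 h without KCl 6h A (-1.42) and kept it at 10 h in each of these refits.

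The central 300 bp of the Gna11 and Sp100 peaks (chr10:81551636-81551935 and chr1:85716567-85716866, plus strand, no annotated exon) are given because they had the lowest adjusted p of the 4 when the larger of the values at 6 h and 10 h is taken.
Peak chr10:81551569-81552001: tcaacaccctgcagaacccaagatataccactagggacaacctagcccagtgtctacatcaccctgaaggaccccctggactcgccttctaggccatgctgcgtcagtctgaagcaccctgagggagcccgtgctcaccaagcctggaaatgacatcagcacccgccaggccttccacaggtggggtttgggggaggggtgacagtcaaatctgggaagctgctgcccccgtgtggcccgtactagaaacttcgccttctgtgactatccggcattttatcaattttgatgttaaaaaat
Peak chr1:85716536-85716897: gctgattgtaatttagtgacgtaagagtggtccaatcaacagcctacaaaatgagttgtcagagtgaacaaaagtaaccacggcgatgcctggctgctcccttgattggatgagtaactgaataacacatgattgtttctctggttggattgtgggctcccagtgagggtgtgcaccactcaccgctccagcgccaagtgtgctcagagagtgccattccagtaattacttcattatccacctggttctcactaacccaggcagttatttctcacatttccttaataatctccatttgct

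**Figure D4:**
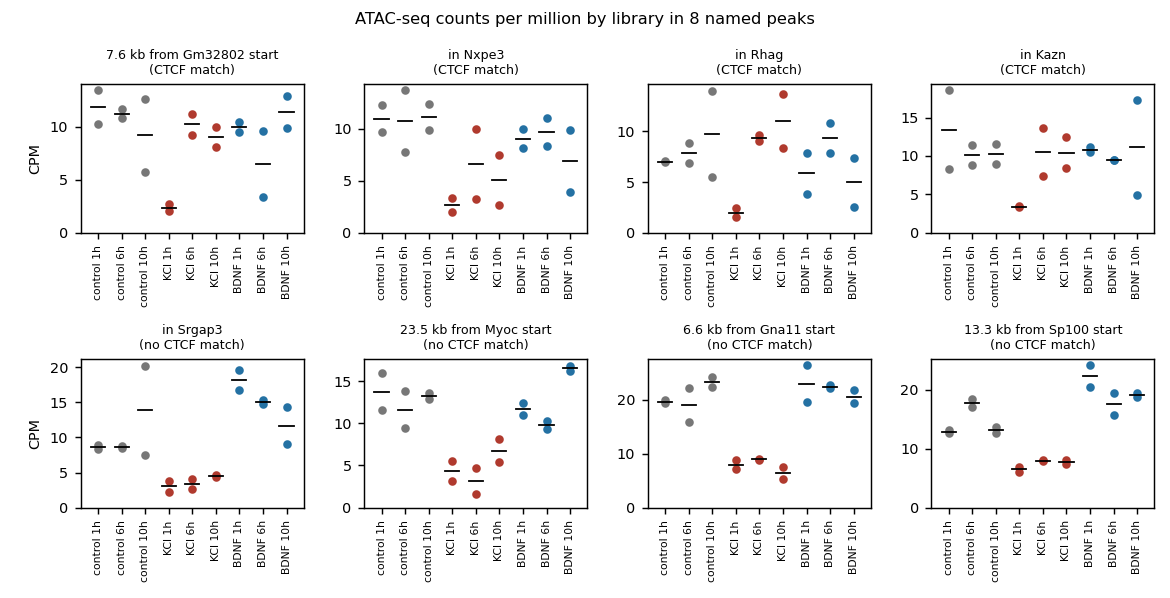
ATAC-seq CPM (y axis) by group (x axis) in 8 KCl-closed peaks; points are libraries and lines the mean of 2, with the 4 lowest peaks that have a CTCF match on top and the 4 called lower with KCl than BDNF at both 6 h and 10 h below. The KCl 6 h and 10 h points of the Gna11 and Sp100 peaks lie below 10 CPM with all control and BDNF points above them, and those of the Rhag and Kazn peaks lie above their KCl 1 h points.

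Promoters were 8 of the 34 peaks called lower at 6 h: Selenoh, Crip2, Ankrd17, Dbp, Nsfl1c, Serinc1, Rufy3 and the noncoding gene Gm15494. The share of all promoter peaks called lower is not given here. KCl-closed peaks had a median count of 35.7 at promoters and 27.9 outside them, and the part of count in these calls was not tested. Selenoh, Ankrd17, Nsfl1c and Gm15494 are named after their values were seen. The lowest log2 fold change of these 8 promoter peaks was -1.52 at a start inside Crip2, which encodes a LIM-domain protein. The one nearest 0 was -0.39 at Rufy3. At 10 h 1 promoter peak was called lower, that of Neb, which encodes the muscle protein nebulin, with 5.69 and 6.84 CPM with KCl and 17.3 and 17.3 with BDNF (also named after its values were seen). The 63 promoter peaks had a median log2 fold change of -0.43 at 6 h and -0.30 at 10 h. Among the 69 peaks with a mean count of at least 50, where counting error is smaller, the medians were -0.46 and -0.37, beside 0.01 over all tested peaks at both times.

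The RNA libraries had no part in the choice of peaks and served as a second measurement of the same genes. The 63 promoter peaks lay at 71 annotated genes, of which 48 were measured well enough to be tested (mean normalised value of at least 10), with limma on log2(value + 1) over 16209 genes. With KCl at 1 h, 13 of the 48 were lower than the 6 controls and 16 higher at an adjusted p below 0.1. Over all tested genes, 28.2% were called lower and 26.5% higher. After 6 h 14 were lower and 11 higher (all genes 33.1% and 33.4%), and after 10 h 13 were lower and 9 higher (28.2% and 29.0%). The 48 genes had a median log2 fold change of 0.03, -0.06 and -0.02 at the 3 times, beside 0.00, 0.01 and 0.01 over all genes.

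BDNF, compared with the same controls, gave 16 lower and 7 higher at 1 h (all genes 19.0% and 21.3%). After 6 h of BDNF 12 were lower and 5 higher (21.1% and 22.1%), and after 10 h 14 lower and 5 higher (19.5% and 21.1%). In the direct comparison KCl was lower than BDNF at 9 genes and higher at 15 at 1 h (all genes 24.6% and 18.2%). After 6 h it was lower at 13 and higher at 12 (29.6% and 27.8%), and after 10 h lower at 8 and higher at 12 (23.1% and 21.8%).

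The largest fall at 1 h was that of Zfp729a, a zinc-finger gene, with normalised values of 170 and 149 in KCl 1 h and 397 to 488 in the controls. Its log2 fold change was -1.45 ± 0.11 (SE; limma adjusted p = 5.14e-10), and it was also lower at 6 h (-0.98) and 10 h (-0.67). Ube3a fell at 1 h from 1012 to 1265 in controls to 922 and 772 (-0.47 ± 0.08 (SE), limma adjusted p = 2.9e-05), and was 1274 and 1352 at 6 h (0.16, limma adjusted p = 0.07754). Its RNA was therefore lower when its promoter peak was lowest, and slightly above controls at 6 h while that peak was still below them. Atp6v0e had 264 and 248 at KCl 1 h against 361 to 434 in controls (-0.59), and 414 and 611 at 6 h (0.38). Dbp, a circadian transcription factor of the PAR bZIP family, fell at all 3 times (-0.64, -0.99 and -0.53; at 1 h it was -0.55 and did not pass without KCl 1h A), and was also lower with BDNF, with values of 37.5 to 53.2 against 64.0 to 87.3 in controls. Sbno2 fell by 0.55 on the log2 scale at 1 h. The antisense gene D030055H07Rik fell by 0.62, a call that rested on library KCl 1h A (37.0, against 77.0 in B, and -0.10 without A), and the sources used here do not say whether counting used strand.

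The largest rise was opposite to the promoter peak. Ddx3y, a Y-linked DEAD-box RNA helicase, had values of 3667 and 3263 in KCl 1 h and 692 to 750 in controls, a log2 fold change of 2.25 ± 0.08 (SE; limma adjusted p = 6.09e-16). After 6 h of KCl it was 1727 and 2066 (1.38), after 10 h 1010 and 1203 (0.60), and with BDNF it stayed between 665 and 935. Other Y-linked genes did not share the rise at 1 h: the log2 fold change was -0.16 for Eif2s3y, -0.43 for Kdm5d and -0.64 for Uty. The peak at the Ddx3y promoter (chrY:1286406-1286783) had an L of -0.92 with KCl at 1 h.

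Orai3 was higher with KCl at 1 h (248 and 164 against 120 to 143, 0.62, and 0.32 without KCl 1h A) and lower at 10 h (95.3 and 85.0, -0.54). Cdk13, a kinase of transcription elongation, was higher at 1 h (1240 and 1234 against 868 to 969, 0.45), and more so with BDNF (1647 and 1667). Crip2 and Serinc1 were higher at all 3 times with KCl, by 0.40, 0.77 and 0.52 and by 0.33, 0.54 and 0.47. Their promoter peaks were among those still lower than BDNF at 6 h. The Crip2 peak (chr12:113142468-113142809) lay at a transcript start inside the gene, which begins at 113140236. The RNA value is that of the whole gene and does not separate its starts. Sipa1l3 rose at 1 h (0.32) and fell at 10 h (-0.38).

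Other promoter genes are named for their changes at the later times. The long noncoding RNA D130017N08Rik had values of 49.2 and 46.3 at KCl 6 h against 180 to 218 in controls (-2.08 ± 0.12 (SE), limma adjusted p = 2.78e-12) and -1.60 at 10 h. Irak1, a kinase downstream of the interleukin-1 receptor and Toll-like receptors, fell by 1.21 at 6 h and 0.91 at 10 h. Otof had 40.3 and 18.5 at KCl 10 h against 70.2 to 115 in controls (-1.66), and with BDNF 10 h it had 29.4 and 32.5. Rita1 rose at 6 h (0.89) and 10 h (0.48), and Tmbim4, an anti-apoptotic membrane protein of the Golgi, rose by 0.71 at 6 h and 0.67 at 10 h. The Tmbim4 peak (chr10:120208624-120209083) lay at a transcript start inside its gene, which begins at 120201590.

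For distal peaks the nearest annotated gene within 50 kb was taken, 482 genes in all and 216 tested. At 1 h of KCl 52 were lower and 70 higher. The numbers were 70 lower and 69 higher after 6 h and 70 lower and 56 higher after 10 h, beside the shares of all genes given above. With BDNF the numbers were 39 and 50, 53 and 55, and 58 and 41, beside the shares given for BDNF. The median log2 fold change with KCl at 1 h was 0.07.

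Genes of CTCF and the cohesin ring changed in mixed directions. Of 18 genes on the list, 4 were lower and 7 higher with KCl at 1 h (all genes 28.2% and 26.5%). After 6 h 8 were lower and 5 higher (33.1% and 33.4%), and after 10 h 6 were lower and 4 higher (28.2% and 29.0%). BDNF at 1 h gave 0 lower and 4 higher (19.0% and 21.3%), and KCl against BDNF at 1 h 2 lower and 6 higher (24.6% and 18.2%). Ctcf itself had 1238 and 1185 at KCl 1 h, below all 6 controls (1324, 1429 (median) and 1451), with a log2 fold change of -0.22 ± 0.06 (SE; limma adjusted p = 0.004466), and it was -0.13 at 6 h and -0.16 at 10 h. With BDNF at 1 h the fold change of Ctcf was -0.05 (limma adjusted p = 0.6022). Of the ring and its loaders, Smc3 rose by 0.29 at 1 h, Stag1 by 0.22 and Nipbl by 0.16, while Smc1a (0.00) and Rad21 (0.09) did not pass the test at that time. At 6 h Smc1a fell by 0.55, Stag2 by 0.24 and the cohesin regulators Pds5a by 0.36 and Pds5b by 0.69, and the loader subunit Mau2 rose by 0.49.

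Larger changes were seen in RNAs of other DNA-binding proteins on the list. Yy1 had 1440 and 1456 at KCl 1 h against 825 to 905 in controls (0.73), and Maz 4260 and 4669 against 2862 to 3148 (0.59). Zfp143, which binds promoters and loop anchors, had 143 and 147 at 1 h against 161 to 190 in controls (-0.27, limma adjusted p = 0.04702), then 509 and 541 at 6 h (1.58, limma adjusted p = 1.14e-10) and 271 and 374 at 10 h (0.86). Esco2 and Cdca5, which act on cohesin in dividing cells, were lower at 10 h by 1.06 and 0.86. Hdac8, which recycles cohesin, was higher at 1 h by 0.43 and lower at 6 h by 0.40. Esco1 rose by 0.32 at 6 h, and for Wapl, which releases cohesin, no time passed the test with KCl.

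Several of these small changes depended on 1 library. At 1 h Nipbl (0.08), Mau2 (-0.10), Pds5b (-0.09) and Esco2 (0.21) did not pass without KCl 1h B, and Hdac8 and Zfp143 did not pass without either KCl 1 h library (0.44 and 0.42, and -0.26 and -0.29). Nipbl and Esco2 also failed without control 1h A (0.14 and 0.30), and Mau2 and Esco2 without control 6h A (-0.11 and 0.35). At 6 h Ctcf (-0.06), Esco1 (0.18) and Hdac8 (-0.33) did not pass without KCl 6h B, nor Stag2 (-0.11) and Cdca5 (-0.30) without KCl 6h A. At 10 h Ctcf did not pass without KCl 10h A (-0.12) and Pds5a without either KCl 10 h library (-0.20 and -0.21). Nipbl, called lower at 10 h (-0.16), did not pass without KCl 10h A (-0.08), control 10h B (-0.14), control 1h B (-0.14) or control 6h A (-0.15). The fall of Ctcf at 1 h passed in each of these refits, between -0.26 and -0.19.

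**Figure D5:**
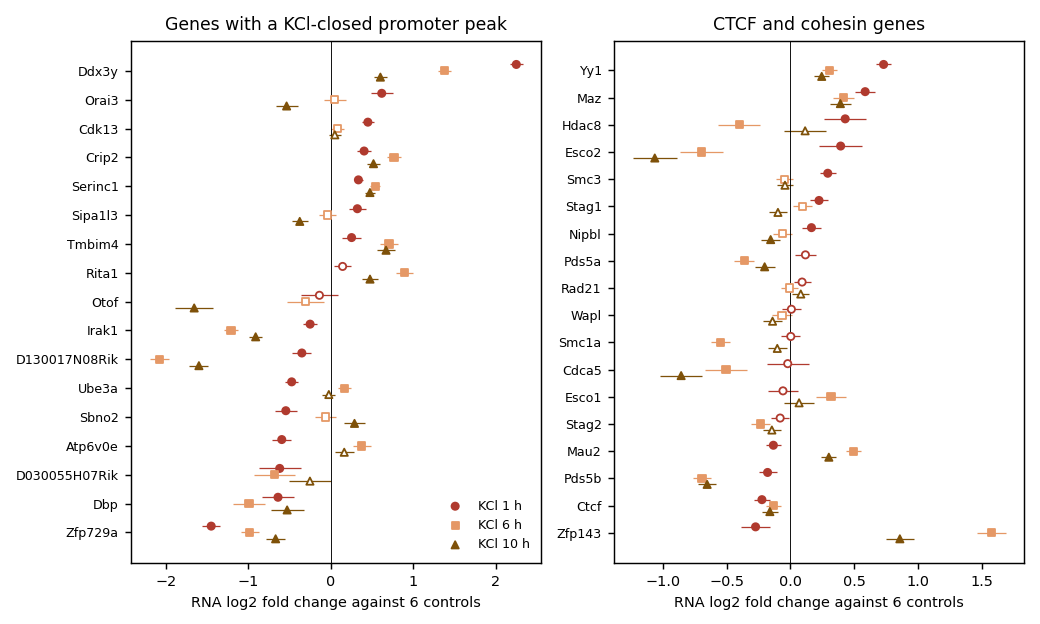
RNA log2 fold change of KCl against the 6 controls (x axis, limma on log2(value + 1)) for named genes with a KCl-closed promoter peak and for the CTCF and cohesin list (y axes); points are the 3 times, lines SE, and filled points have an adjusted p below 0.1. Ddx3y is highest at 1 h with 2.25 and Zfp729a lowest with -1.45, and Zfp143 is the highest of its list at 6 h with 1.58.

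The other lists of chromatin factors were less directly tied to the motif. Of 25 nucleosome remodelling genes, 15 were higher and 2 lower with KCl at 1 h (all genes 26.5% and 28.2%), with a median log2 fold change of 0.27 (all genes 0.00). BDNF at 1 h gave 12 higher and 1 lower (21.3% and 19.0%), with a median of 0.20. KCl against BDNF at 1 h gave 6 higher and 4 lower (18.2% and 24.6%), with a median of -0.04. After 6 h of KCl 6 were higher and 4 lower (33.4% and 33.1%), and after 10 h 5 higher and 4 lower (29.0% and 28.2%). Of 18 KLF and SP genes 9 were lower and 6 higher with KCl at 1 h, and of 13 E2F and pocket protein genes 4 and 2. Of 12 genes of CXXC-domain proteins, which bind unmethylated CpG, 4 were lower and 4 higher, beside 28.2% and 26.5% of all genes. In the same order, BDNF at 1 h gave 2 lower and 11 higher, 2 and 6, and 2 and 7 (all genes 19.0% and 21.3%). KCl against BDNF at 1 h gave 13 lower and 2 higher, 7 and 3, and 6 and 2 (24.6% and 18.2%).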

How the data were processed

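ATAC-seq and RNA-seq of 18 libraries each were used. Per the labels and methods, the authors trimmed reads (Trimmomatic), aligned them to mm10 (Bowtie2, TopHat2), called peaks per sample with MACS2, kept those found in at least 2 samples and deposited ATAC counts per DiffBind consensus peak (whole numbers, without the LOESS step their methods describe), and RNA read counts divided by a DESeq2 size factor, here treated as signal. These RNA values, deposited by the authors, gave whole reads in 100% of cases (within 0.01). The authors' tables of fold changes, standard errors and p-values were not used.

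ATAC counts were tested with edgeR 4.0.16 (quasi-likelihood, LOESS offsets with a span of 0.3, mean count of at least 10, controls pooled) and RNA with limma 3.58.1 on log2(value + 1) (mean value of at least 10, pooled controls), with p-values adjusted over all features and calls below 0.1. SE is that of the fit. R 4.3.3, DESeq2 1.42.0, Python 3.11.15 and pysam 0.24.0 were used, and both fits were tested on simulated data. Intervals are exact (Clopper-Pearson) and cover counting error only. Motifs were sought in the central 300 bp. Annotation was GENCODE M21, and 26162 of 26709 genes of the RNA table matched it. No 2 ATAC columns were identical, and replicates differed by more than sampling noise (chi-square per degree of freedom 2.02 to 2.58). Deviations of same-letter RNA libraries from their group means correlated between -0.31 and 0.42 (median 0.06, 36 pairs). This range does not settle whether the letters pair samples in some of the groups, and the main RNA fit used no pairing.

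The peaks and gene lists were chosen with earlier results of these data known. Named were the 10 lowest KCl-closed peaks and 8 coding promoters with both KCl 1 h libraries below all controls, the 5 with the highest control level, those called at both later times, the largest called changes of promoter genes with a mean value of at least 50 (6 falls and 6 rises at 1 h, 3 of each at 6 and 10 h) and all CTCF and cohesin genes. Alternatives were other scalings, DESeq2, edgeR on whole RNA reads, filters, pseudocounts, same-time controls, an RNA replicate block and leaving out each library.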

Additional observations from a re-analysis of the deposited data

Results flagged for a closer look

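In 7 of 62 groups of 6 control values, 1 library lay apart from the others by Dixon's test, where chance flags about 1 in 20. Among peaks, control 10h A was highest in the Srgap3 intron (chr6:112728811-112729185, 20.1971 CPM) and control 1h A in the Kazn intron (chr4:142153610-142153934, 18.5645 CPM). In RNA, control 6h B was highest for D030055H07Rik (132.7337) and control 10h B for Stag1 (825.104). Control 1h A was lowest for Ube3a (1012.3129), Ctcf (1323.9201) and Pds5a (467.9033). The falls of Ube3a and Ctcf with KCl at 1 h passed the limma test in each refit that left out 1 library.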

How the results depend on the processing

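Of the results for single peaks and genes, 821 kept their direction and side of the threshold under the alternatives, 55 lost their call and none reversed. The number of KCl-closed peaks was 1207 with a mean count of at least 10 (584 shared), 48 with at least 50 and 285 with 2 CPM added, and 572 to 1182 with 1 library left out. With the controls of 1 h only, the rule chose 622 peaks, of which 364 were among the 602. At an adjusted p below 0.01, 4 peaks were lower than with BDNF at 6 h, 1 at 10 h and 0 between controls of 10 h and 1 h. The numbers over all tested peaks at that limit are not given here. At 10 h DESeq2 size factors gave 12 and TMM 11, while all tested peaks called lower rose from 647 to 1071 and 1042. At 6 h these scalings gave 38 and 33, and all tested peaks 1949 and 1817 in place of 1102. For the controls of 10 h and 1 h DESeq2 gave 0. Leaving out 1 library gave 8 to 17 at 6 h, 1 to 4 at 10 h and 0 for the controls, and medians of -0.3317 to -0.1809 for KCl against BDNF at 10 h and 0.0291 to 0.2016 for KCl 10 h against 6 h. With controls of the same time only, 190, 35 and 27 of the 602 were lower with KCl at 1, 6 and 10 h, beside 711, 561 and 588 of all tested peaks. With pooled controls the numbers were 432, 56 and 48, beside 1751, 1099 and 1103 of all tested peaks. The cause was not tested. Depth limits single peaks: the 602 had a median of 9 reads in KCl 6h B and 17 in KCl 1h A.

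The shares of all genes called under the settings of this paragraph are not given here. The counts of promoter and nearest genes below therefore show only how they move with the setting, not how they compare with all genes. For promoter genes, an adjusted p below 0.01 gave 18 calls with KCl at 1 h and 14 at 10 h. With BDNF it gave 11 at 6 h and 11 at 10 h. For KCl against BDNF it gave 15, 16 and 10 at 1, 6 and 10 h. Nearest genes then gave 51, 60 and 45 with BDNF at 1, 6 and 10 h. With same-time controls BDNF at 10 h gave 10 promoter and 65 nearest genes. Leaving out 1 library gave 14 to 24, 11 to 19 and 12 to 21 promoter genes and 55 to 86, 64 to 116 and 57 to 108 nearest genes with BDNF at 1, 6 and 10 h. No paired analysis was possible because the ATAC columns carry no replicate number. With the RNA letter as a replicate block, promoter genes called numbered 30, 25 and 23 with KCl at 1, 6 and 10 h, 23, 18 and 19 with BDNF, and 26, 26 and 20 between them, and nearest genes 124, 144 and 130 with KCl.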
